A study of Arabidopsis thaliana with 4 samples.

Results

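The regions described here are the pericentromeric 1 kb bins of the 5 Arabidopsis chromosomes, counted in the deposited read positions. They were taken from windows of chromosome 1 (12 to 18 Mb), chromosome 2 (1 to 7 Mb), chromosome 3 (11 to 17 Mb), chromosome 4 (2 to 6 Mb) and chromosome 5 (9 to 16 Mb). Members were selected on their reads, a measured value, and a bin was a member when it held 10 or more reads summed over the 4 libraries and did not take over 1% of the nuclear reads of any library. Members numbered 3972 of the 49208 bins that met these conditions on the 5 chromosomes, and the other 45236 lay in the chromosome arms. The libraries were poly(A) mRNA-Seq of leaves from plants aged 3 weeks and kept in long days, with 1 library for each genotype. These genotypes were the T-DNA insertion mutant *suvr5-1*, *ldl1-2 ldl2*, called the double mutant here, *suvr5-1 ldl1-2 ldl2*, called the triple mutant, and the wild type Col-0. How many plants entered a library is not given in the sources used here, and since 1 library stood for each genotype, no difference below has a replicate check.

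Pericentromeric DNA in Arabidopsis is packed as heterochromatin, in which histone H3 dimethylated at lysine 9 (H3K9me2) and DNA methylation keep transposable elements silent, with genes scattered between them. SUVR5 is a SET-domain protein linked to H3K9me2, and LDL1 and LDL2 are paralogous demethylases of H3K4. The comparison asked whether transcripts of these regions were more or less abundant when SUVR5, the LDL pair or all of them were mutated.

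*LDL2* was the targeted gene that could be read in these positions, and its exons held 26 reads in *suvr5-1*, 8 in the double mutant and 5 in the triple mutant, against 25 in Col-0. That was 3.00, 1.62 and 0.870 RPM (reads per 1000000 reads) in the mutants in the same order, against 4.37 RPM in Col-0, so the lowest values were in the libraries labelled as *ldl2* mutants. Here and below, RPM is scaled to the nuclear reads outside 5 bins that took over 1% of a library, which left between 4923869 and 8663979 reads a library. Leaf marker genes summed to 66090 RPM in *suvr5-1*, 60753 in the double mutant and 36804 in the triple mutant, against 60673 RPM in Col-0. The flower markers *AG* and *SEP3* together reached 3.69, 12.4 and 5.74 RPM in these mutants, against 0.874 RPM in Col-0, and the root hair marker had no read in any library. Reads per distinct position in member bins of 10 to 49 reads were 2.29 in *suvr5-1*, 2.70 in the double mutant and 1.76 in the triple mutant, against 1.62 in Col-0, so repeated reads were most frequent in the double mutant. The part of the marker genes in the results below was not tested, and calls with each position and strand counted once are given with the counts.

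Most of the pericentromeric sequence gave few or no reads. Of the 29000 bins in the windows, 8365 held a read and 13.7% were members, whereas 50.2% of the arm bins met the same conditions. A member had a median of 69 reads over the 4 libraries, and an arm bin had 83. Just inside the read minimum lay 102 bins with exactly 10 reads, and just outside it 115 bins with 9 reads. The largest share of a library in a member was 0.499% of its nuclear reads, and the smallest of the left-out pericentromeric bins reached 6.51%. Once its highest library was set aside, 728 members (18.3%) had under 10 reads, so these had passed the minimum through the library in which they were high.

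Members were unevenly spread over the chromosomes. Chromosome 1 had 949, chromosome 2 had 806, chromosome 3 had 673, chromosome 4 had 460 and chromosome 5 had 1084. Reads were concentrated in few of them, and the 10 members with most reads held 67.4% of the member reads of chromosome 4 and 64.5% of those of chromosome 2, against 32.9% on chromosome 5. By megabase, the summed level in Col-0 was lowest on chromosome 3 between 12 and 13 Mb, where 18 members summed to 114 RPM, and highest on chromosome 2 between 2 and 3 Mb, where 120 members summed to 11499 RPM.

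Genes could be named in only part of the windows. The assembly behind the deposited positions is not named in the sources used here, and reads lay as far as 13611 bp past the end of chromosome 5 in TAIR10.1. In 5 stretches the reads were displaced from TAIR10.1 exons by 27 bp or less, and no position was converted elsewhere. On chromosome 1 the stretch runs from 12 to 12.75 Mb, on chromosome 2 from 1 to 3 Mb and on chromosome 5 from 9 to 10 Mb, and chromosome 4 has 2, from 2 to 2.75 Mb and from 5 to 6 Mb. They cover 5.5 of the 29 Mb and hold 1314 members.

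In the stretches, nearly all member reads lay in bins that overlapped a protein-coding exon. The stretches were picked because reads rose close to annotated exon starts, a choice that favours exons. The shares below therefore do not describe the rest of the windows. Overlaps of 30 bp or less were ignored. Of the 2457 bins that overlapped a protein-coding exon, 1243 (50.6%) were members. Of the 1337 other bins that overlapped a locus classed as a pseudogene, 38 (2.84%) were members. RefSeq also places genes of transposable elements in this class. Of the bins with other RNA genes only, 24 of 168 (14.3%) were members, and of those without an annotated exon, 9 of 1538 (0.585%). Protein-coding bins held 98.6% of the member reads of the stretches in *suvr5-1*, 97.5% in the double mutant and 97.7% in the triple mutant, against 97.5% in Col-0.

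**Figure D1:**
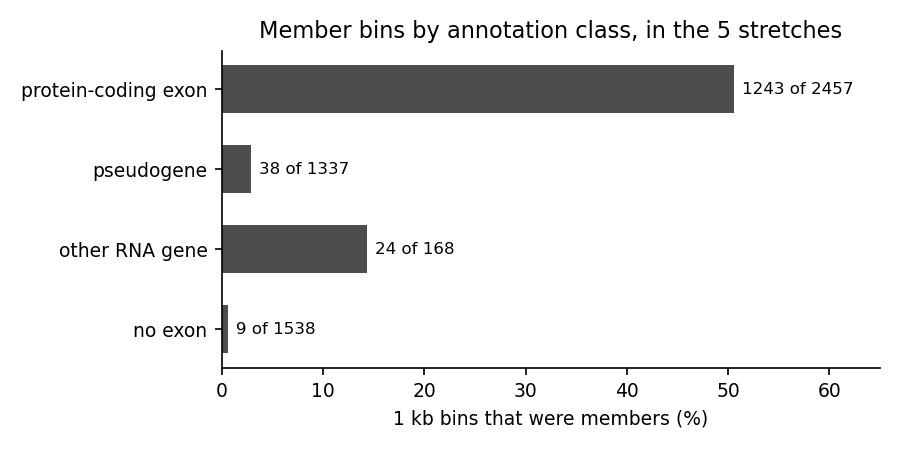
Share of the 1 kb bins of each annotation class that were members, in the 5 stretches where genes could be named, with the horizontal axis in percent and the number of members of all bins printed at each bar. Bins with a protein-coding exon reached 50.6%, and bins with a pseudogene and no protein-coding exon reached 2.84%, overlaps of 30 bp or less being ignored.

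Reads of every bin in a mutant library and in Col-0 were compared with Fisher's exact test (two-sided), and P values were adjusted by Benjamini-Hochberg over all bins tested. A bin was called when the ratio of RPM passed 4 fold in either direction with an adjusted P under 0.01. The test compares the reads of 2 libraries, not the genotypes, and all 3 comparisons share the Col-0 library. Intervals cover counting error only, since reads without molecular identifiers are not independent molecules.

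The 38 pseudogene members summed to 94.9 RPM in *suvr5-1*, 96.1 RPM in the double mutant and 108 RPM in the triple mutant, against 98.9 RPM in Col-0. The 4 libraries thus differed little in this sum. *AtMu1* (AT4G08680), a Mutator-like transposable element that marks loss of silencing, had no read in any library, which allows up to 0.346 RPM in *suvr5-1*, 0.609 in the double mutant and 0.522 in the triple mutant, against 0.524 RPM in Col-0, for counting error only. Of the 7 pseudogene members with 100 or more reads, 1 was called in a mutant. It overlapped AT4G04410 and had 51 reads in *suvr5-1*, 35 in the double mutant and 52 in the triple mutant, against 7 in Col-0. Of the 38 pseudogene members, 1 was called higher and 1 lower in *suvr5-1*, 9 higher and 0 lower in the double mutant, and 2 higher and 1 lower in the triple mutant. Over all bins tested, 2.41% were called higher and 2.83% lower in *suvr5-1*, 5.43% and 2.67% in the double mutant, and 5.21% and 1.61% in the triple mutant. The 9 higher calls of the double mutant had 8 to 35 reads each in that library. Of these, 7 had no Col-0 read, 3 had no read in any other library and 4 rested on 1 or 2 distinct positions. The 3 without a read elsewhere met the read minimum only through the double mutant. So did the bins at 1560001 and 2358001 of chromosome 2, with 9 and 8 reads there. These had 3 and 0 reads in *suvr5-1*, 0 and 2 in the triple mutant, and 0 in Col-0. The selection thus favoured these higher calls.

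In *suvr5-1*, 115 members were called higher and 121 lower, that is 2.90% and 3.05% of them. Over all bins tested, 2.41% were called higher and 2.83% lower, so the shares in the pericentromeres lay near the background. In the double mutant, 271 members (6.82%) were called higher, against 5.43% of all bins, and 98 (2.47%) were called lower, against 2.67% of all bins. In the triple mutant, 236 members (5.94%) were called higher, against 5.21% of all bins, and 67 (1.69%) were called lower, against 1.61% of all bins. Higher calls outnumbered lower ones in the double and the triple mutant, in the pericentromeres and over all bins alike.

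**Figure D2:**
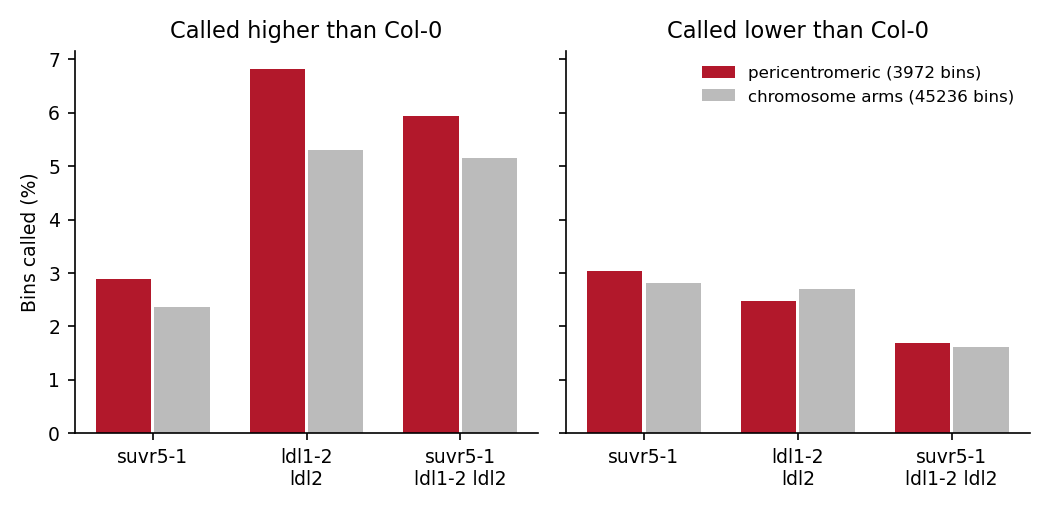
Share of bins called higher (left) or lower (right) in each mutant library than in Col-0, in percent, for pericentromeric members (red) and for bins of the chromosome arms (grey). The largest share was that of members called higher in the double mutant, at 6.82%, against 5.31% in the arms.

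The median log2 ratio of the members was 0.04 in *suvr5-1*, 0.10 in the double mutant and 0.17 in the triple mutant, against medians over all bins of 0.04, 0.05 and 0.21 in the same order. Few Col-0 reads stood behind many calls, since 85 of the 115 higher calls in *suvr5-1*, 213 of the 271 in the double mutant and 154 of the 236 in the triple mutant had under 10 reads in Col-0. No Col-0 read at all stood against 29 of the higher calls in *suvr5-1*, 69 in the double mutant and 45 in the triple mutant, so their ratio has no upper bound. With a beta-binomial test that assumes a dispersion of 0.1 between plants, 10 members were called higher and 11 lower in *suvr5-1*, 33 and 5 in the double mutant, and 54 and 8 in the triple mutant. Higher calls under this test were 0.252% of members against 0.120% of all bins in *suvr5-1*, 0.831% against 0.597% in the double mutant and 1.36% against 1.08% in the triple mutant. Lower calls were 0.277% against 0.181%, 0.126% against 0.106% and 0.201% against 0.150% in the same order. With each position and strand counted once, 29 members (0.730%, against 0.618% of all bins) were called higher and 14 (0.352%, against 0.411%) lower in *suvr5-1*. The counts were 49 (1.23%, against 0.973%) and 20 (0.504%, against 0.536%) in the double mutant, and 101 (2.54%, against 1.92%) and 19 (0.478%, against 0.579%) in the triple mutant. Without a read minimum, higher calls were 1.18% of the pericentromeric bins against 1.58% of all bins in *suvr5-1*. They were 3.20% against 3.69% in the double mutant and 2.74% against 3.52% in the triple mutant. Lower calls were 1.28% against 1.82%, 1.15% against 1.84% and 0.706% against 1.05% in the same order. Whether higher calls were more frequent in the pericentromeres than over all bins thus depended on the read minimum. With all nuclear reads as library size, higher calls made up 66.1% of the called members in *suvr5-1*, against 48.7% with the library size used here, and with median-of-ratios size factors they made up 67.4% in the triple mutant, against 77.9%. The median over all bins shifted with these choices, to 0.26 in *suvr5-1* with all nuclear reads and to 0.02 in the triple mutant with median-of-ratios factors.

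By chromosome, the share of members called higher in the double mutant was 8.70% on chromosome 4, 8.02% on chromosome 3 and 7.38% on chromosome 5, against 5.69% on chromosome 1 and 5.33% on chromosome 2. In the triple mutant it was 7.83% on chromosome 4 and between 5.50% and 5.90% on the others. In *suvr5-1* it ran from 1.74% on chromosome 4 (8 of 460) to 3.97% on chromosome 2 (32 of 806). Chromosome 3 had the largest share called lower in *suvr5-1*, 4.16% (28 of 673). The shares of all bins called higher were 5.43% in the double mutant, 5.21% in the triple mutant and 2.41% in *suvr5-1*, where 2.83% were called lower. Whether the chromosomes differ was not tested. Called bins were mostly single. The 236 higher calls of the triple mutant formed 172 runs of neighbouring bins, the longest of 6 kb, and the 271 of the double mutant formed 225 runs, the longest of 4 kb.

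Summed over all members, the libraries differed little. Members took 8.71% of the scaled reads in *suvr5-1*, 8.57% in the double mutant and 9.25% in the triple mutant, against 8.97% in Col-0. The log2 ratios to Col-0 were -0.04, -0.07 and 0.04, and each of them changed sign under at least one of the other settings tried.

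Chromosome 3 showed the widest difference between the libraries. Its members summed to 10228 RPM in *suvr5-1*, 14149 RPM in the double mutant and 15535 RPM in the triple mutant, against 16361 RPM in Col-0. The log2 ratio to Col-0 was -0.68 in *suvr5-1* (95% interval -0.69 to -0.66, counting error only), -0.21 in the double mutant and -0.07 in the triple mutant. The place of Col-0 as the highest library rested on the bin at 13826001 to 13827000. Without it, a removal chosen after seeing the data, the sums were 10175 RPM in *suvr5-1*, 14030.2 RPM in the double mutant and 15498 RPM in the triple mutant, against 10697 RPM in Col-0, and the log2 ratios were -0.07, 0.39 and 0.53.

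Chromosome 1 members summed to 14039.5 RPM in *suvr5-1*, 14075.5 RPM in the double mutant and 15331 RPM in the triple mutant, against 16889.7 RPM in Col-0. All 3 mutants were lower, and without the bin at 16434001 to 16435000 their log2 ratios were 0.06, 0.01 and 0.16. On chromosome 2 the sums were 33031 RPM in *suvr5-1*, 27667 RPM in the double mutant and 28989 RPM in the triple mutant, against 27299.7 RPM in Col-0. The *suvr5-1* library was the highest there, with a log2 ratio of 0.27, and of 0.16 without its largest bin, that of *GRP-3* described below. Chromosome 4 members reached 12551 RPM in *suvr5-1*, 14913 RPM in the double mutant and 14894 RPM in the triple mutant, against 13899 RPM in Col-0. Chromosome 5 members reached 17292, 14859.5 and 17752 RPM in these mutants, against 15277 RPM in Col-0. On chromosome 5 the log2 ratio of *suvr5-1* was 0.18 and that of the triple mutant 0.22, and without the bin at 14270001 to 14271000 they were 0.29 and 0.32.

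**Figure D3:**
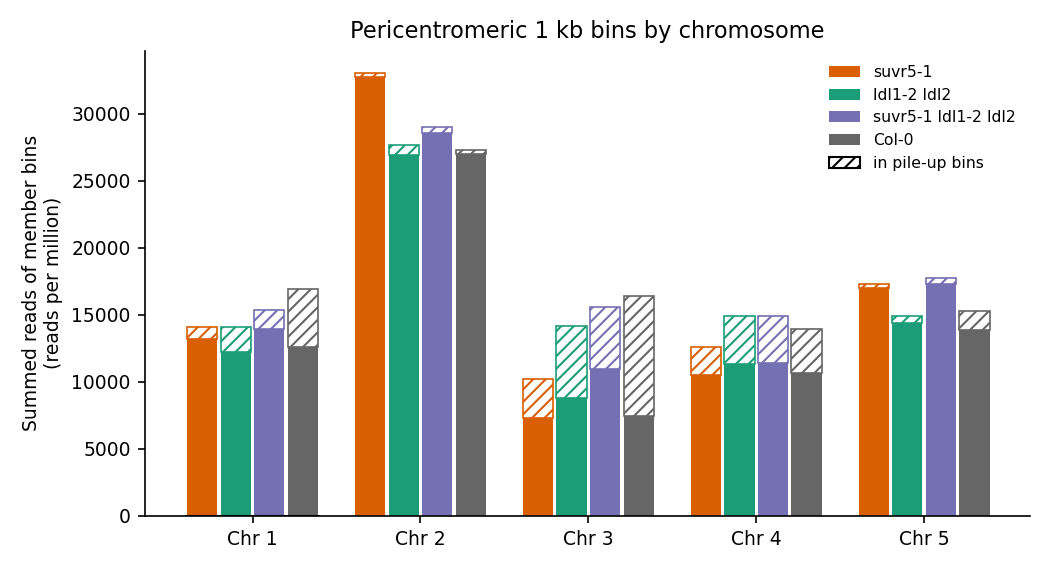
Summed RPM of the member bins of each chromosome, with *suvr5-1*, the double mutant and the triple mutant from left to right and Col-0 last, and with the hatched top of each bar showing the part in pile-up bins. On chromosome 3 the whole bars were lowest in *suvr5-1* (10228 RPM) and highest in Col-0 (16361 RPM), and pile-up bins held 54.4% of the Col-0 reads.

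These bins are pile-ups, in which 1 position and strand held over 20% of at least 200 reads in some library. The members included 39 of them, 24 on chromosome 3, and they held 7.43% of the member reads in *suvr5-1*, 14.1% in the double mutant and 11.3% in the triple mutant, against 20.4% in Col-0. Reads in them covered a median of 32, 35 and 33 distinct positions in the mutants, against 31 in Col-0, while other members with 200 or more reads covered a median of 116, 103 and 146, against 148 in Col-0.

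The bin at 13826001 to 13827000 of chromosome 3 had 465 reads in *suvr5-1*, 586 in the double mutant and 210 in the triple mutant, against 32408 in Col-0. In Col-0 these fell on 20 distinct positions, 1 of which held 21343 reads. The bin at 16434001 to 16435000 of chromosome 1 had 4340, 5282 and 4895 reads in the mutants, against 22520 in Col-0, and the bin at 14270001 to 14271000 of chromosome 5 had 683, 791 and 1004, against 6884 in Col-0. These 3 bins stood far above the mutants in Col-0, whereas by RPM 27 of the 39 were highest in the double mutant, 8 in the triple mutant and 4 in Col-0. When each position and strand was counted once, none of these 3 bins was called in any mutant. Whether reads that match several places were kept is not given in the sources used here, and its part was not tested.

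**Figure D4:**
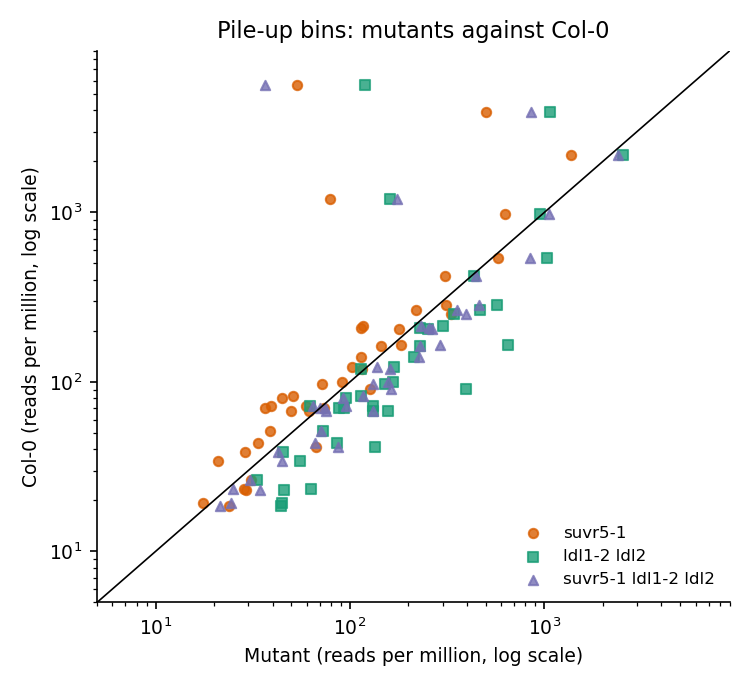
RPM of the 39 pile-up bins in each mutant library (horizontal, log scale) against Col-0 (vertical, log scale), with the line of equality. The bins of chromosomes 3, 1 and 5 at 5664, 3936 and 1203 RPM in Col-0 stand clear of the line, and Col-0 was the highest library in 4 of the 39 bins.

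The genes of the stretches with many reads that are given here, chosen after their values were seen, encode glycine-rich, chloroplast and ubiquitin proteins. *GRP-3* (AT2G05520), which encodes a small glycine-rich protein of the cell wall, filled the largest member, on chromosome 2 at 2026001 to 2027000, with 67152 reads in *suvr5-1*, 27004 in the double mutant and 44619 in the triple mutant, against 27006 in Col-0. That was 7751, 5484 and 7766 RPM in the mutants, against 4719.8 RPM in Col-0. Its paralogue *GRP3S* (AT2G05380) had 5318 RPM in *suvr5-1*, 3458 in the double mutant and 2840.4 in the triple mutant, against 3013 RPM in Col-0, in the bin at 1967001 to 1968000. Both were highest in libraries carrying *suvr5-1*, *GRP-3* in 2 of them and *GRP3S* in 1, with ratios under 2 that made no call.

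Of 4 photosystem II genes, 3 had their lowest level in the triple mutant. *PSBX* (AT2G06520), a small photosystem II subunit, had 4252 RPM in its exons in *suvr5-1*, 3912 in the double mutant and 2782 in the triple mutant, against 3764 RPM in Col-0. *PSBQ-2* (AT4G05180), of the oxygen-evolving complex, had 2693, 2813 and 1619.9 RPM in these mutants, against 2710.1 RPM in Col-0. *LHCB2.2* (AT2G05070), a light-harvesting protein of photosystem II, had 1405, 1154 and 816 RPM in them, against 1477 RPM in Col-0. Its copy *LHCB2.1* (AT2G05100) was lowest in the double mutant, with 1904, 1564 and 1682 RPM in the mutants, against 2059 RPM in Col-0. In the triple mutant the ratios to Col-0 were 0.739 for *PSBX* (95% interval 0.724 to 0.754, counting error only), 0.598 for *PSBQ-2* and 0.553 for *LHCB2.2*, none past 4 fold. The leaf marker sum given above was also lowest in that library, and its part was not tested. The polyubiquitin gene *UBQ11* (AT4G05050) had 566 RPM in *suvr5-1*, 1175.5 in the double mutant and 929 in the triple mutant, against 433 RPM in Col-0, and *UBQ10* (AT4G05320) had 1738, 1853 and 2622 RPM in them, against 1939.9 RPM in Col-0. Polyubiquitin genes, the *LHCB2* genes and the *GRP3* pair have near-identical copies, so the split of their reads between copies is uncertain.

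The called genes below were also chosen after their values were seen. *TGG1* (AT5G26000) and *TGG2* (AT5G25980) encode myrosinases. Myrosinases cleave glucosinolates, the mustard oil precursors, when tissue is damaged. The exons of *TGG2* had 3030 reads in *suvr5-1*, 835 in the double mutant and 3288 in the triple mutant, against 180 in Col-0. Each mutant was above Col-0, and all 4 bins of the gene were called higher in each mutant. The ratio to Col-0 was 11.1 in *suvr5-1* (95% interval 9.56 to 13.0, counting error only), 5.39 in the double mutant (4.58 to 6.37) and 18.2 in the triple mutant (15.7 to 21.3). *TGG1*, its neighbour on the other strand, had 5471 exon reads in *suvr5-1*, 782 in the double mutant and 4817 in the triple mutant, against 824 in Col-0. Its 4 bins were called higher in *suvr5-1* and in the triple mutant and none was called in the double mutant, with ratios of 4.38 (4.07 to 4.72), 5.82 (5.41 to 6.28) and, in the double mutant, 1.10 (0.999 to 1.22).

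The promoters of the pair are shown because both genes were called higher in the mutants other than the double mutant, where only *TGG2* was. They run from 250 bases before to 49 bases after the annotated gene start, 300 bases in TAIR10.1 from RefSeq, at chr5:9082335-9082634 on the minus strand for *TGG1* and at chr5:9072458-9072757 on the plus strand for *TGG2*. Capitals mark the runs of 12 or more bases that both promoters hold, which were 21, 30 and 19 bases long.
TGG1: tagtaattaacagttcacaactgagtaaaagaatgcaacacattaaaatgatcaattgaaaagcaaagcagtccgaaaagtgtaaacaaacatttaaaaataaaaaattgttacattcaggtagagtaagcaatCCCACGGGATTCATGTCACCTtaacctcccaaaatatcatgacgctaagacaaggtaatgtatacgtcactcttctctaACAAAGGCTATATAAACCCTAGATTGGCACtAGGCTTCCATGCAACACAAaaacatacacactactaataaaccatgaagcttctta
TGG2: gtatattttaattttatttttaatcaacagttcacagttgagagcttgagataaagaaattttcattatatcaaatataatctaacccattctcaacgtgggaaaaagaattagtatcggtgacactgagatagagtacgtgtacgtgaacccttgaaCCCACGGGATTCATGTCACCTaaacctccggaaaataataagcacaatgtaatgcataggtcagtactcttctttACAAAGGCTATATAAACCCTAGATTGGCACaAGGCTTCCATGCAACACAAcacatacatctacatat

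Several genes linked to defence or of receptor families had their highest level in the triple mutant. *NUDT6* (AT2G04450), which encodes a nudix hydrolase, had 54 exon reads in *suvr5-1*, 14 in the double mutant and 228 in the triple mutant, against 0 in Col-0. Taking 3 reads in place of none in Col-0, the level was 11.9-fold higher in *suvr5-1*, 5.42-fold higher in the double mutant and 75.7-fold higher in the triple mutant. The lower limits of the 95% intervals of the ratios were 9.34, 3.85 and 61.1 in this order, for counting error only. *WRKY50* (AT5G26170), a WRKY transcription factor, had 90 exon reads in *suvr5-1*, 48 in the double mutant and 408 in the triple mutant, against 11 in Col-0. The ratio was 5.40 (95% interval 2.88 to 11.2) in *suvr5-1*, 5.07 (2.60 to 10.8) in the double mutant and 36.9 (20.4 to 74.6) in the triple mutant.

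*CRK36* (AT4G04490), a cysteine-rich receptor-like kinase, had 35 exon reads in *suvr5-1*, 41 in the double mutant and 133 in the triple mutant, against 13 in Col-0. All 4 of its bins were called higher in the triple mutant, 1 in the double mutant and none in *suvr5-1*. Of these, the bin at 2233001 to 2234000 met the read minimum only through the triple mutant, so the selection favoured that call. It had 5 reads in *suvr5-1*, 0 in the double mutant and 13 in the triple mutant, against 1 in Col-0. The bin of its neighbour *CRK37* (AT4G04500) at 2240001 to 2241000 had 12, 2 and 83 reads in these mutants, against 4 in Col-0, and was called higher only in the triple mutant (Fisher's exact test, adjusted P = 9.53e-19). AT1G33610, a leucine-rich repeat protein, had 85 exon reads in *suvr5-1*, 50 in the double mutant and 80 in the triple mutant, against 2 in Col-0. Its ratio was 28.1 (95% interval 7.53 to 236) in *suvr5-1*, 29.1 (7.63 to 246) in the double mutant and 39.8 (10.7 to 335) in the triple mutant. All of these rest on the same 2 Col-0 reads and their intervals overlap, so the triple mutant did not stand apart for this gene.

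WRKY factors bind the W-box, so promoters of *NUDT6*, *CRK36* and *WRKY50* were searched for TTGACC and TTGACT on both strands. The window was the same 300 bases, at chr2:1543070-1543369 on the plus strand, chr4:2234640-2234939 on the minus strand and chr5:9148342-9148641 on the minus strand. Capitals mark a match, with 1 in *NUDT6*, 1 in *CRK36* and 0 in *WRKY50*. A match was present in 32.4% of all 27443 promoters of protein-coding genes and in 32.7% of the 879 in the stretches. A match describes the letters only.
NUDT6: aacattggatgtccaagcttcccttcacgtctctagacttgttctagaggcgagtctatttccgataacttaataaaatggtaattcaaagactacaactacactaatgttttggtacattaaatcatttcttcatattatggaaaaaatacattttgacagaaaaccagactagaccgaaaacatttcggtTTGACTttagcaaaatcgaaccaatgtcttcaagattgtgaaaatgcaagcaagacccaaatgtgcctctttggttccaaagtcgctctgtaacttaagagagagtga
CRK36: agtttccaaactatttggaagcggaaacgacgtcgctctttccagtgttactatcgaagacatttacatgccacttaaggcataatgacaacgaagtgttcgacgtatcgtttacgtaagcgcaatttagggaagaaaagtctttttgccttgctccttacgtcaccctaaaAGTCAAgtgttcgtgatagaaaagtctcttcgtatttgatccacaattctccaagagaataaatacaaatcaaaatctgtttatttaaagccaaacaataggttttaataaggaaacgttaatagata
WRKY50: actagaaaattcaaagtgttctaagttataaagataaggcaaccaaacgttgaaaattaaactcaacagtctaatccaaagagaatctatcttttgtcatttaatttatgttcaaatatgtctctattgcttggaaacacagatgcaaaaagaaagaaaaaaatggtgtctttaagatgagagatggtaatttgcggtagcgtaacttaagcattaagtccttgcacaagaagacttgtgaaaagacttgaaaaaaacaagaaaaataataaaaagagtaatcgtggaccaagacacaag

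Other genes were highest in the double mutant or in *suvr5-1*. *OPR3* (AT2G06050), which encodes the reductase that acts on 12-oxophytodienoic acid in jasmonate synthesis, had 322 exon reads in *suvr5-1*, 2230 in the double mutant and 596 in the triple mutant, against 166 in Col-0. It was far higher in the double mutant than in any other library, with a ratio of 15.6 (95% interval 13.3 to 18.4), against 3.58 (3.01 to 4.27) in the triple mutant and 1.28 (1.06 to 1.55) in *suvr5-1*. *MSRB6* (AT4G04840), a methionine sulfoxide reductase, had 114, 73 and 36 exon reads in *suvr5-1*, the double mutant and the triple mutant, against 2 in Col-0. With so few Col-0 reads, the ratio of 37.6 in *suvr5-1* has an interval of 10.2 to 315. *XTH4* (AT2G06850), an enzyme that remodels xyloglucan in the cell wall, had 3842 exon reads in *suvr5-1*, 1045 in the double mutant and 835 in the triple mutant, against 512 in Col-0, a ratio of 4.96 (4.52 to 5.45) in *suvr5-1*. All 3 *XTH4* bins were called higher in *suvr5-1*, 1 in the double mutant and none in the triple mutant.

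AT2G05540 was called lower in all 3 mutants, at both of its bins in *suvr5-1* and the triple mutant and at 1 of them in the double mutant. It encodes a glycine-rich protein and lies close to *GRP-3*, and its exons held 1318 reads in *suvr5-1*, 1303 in the double mutant and 240 in the triple mutant, against 5908 in Col-0. The level was lowest in the triple mutant, with a ratio of 0.0405 (95% interval 0.0354 to 0.0460), against 0.147 (0.139 to 0.156) in *suvr5-1* and 0.256 (0.241 to 0.272) in the double mutant. AT2G06845, annotated as related to beta-galactosidase, had 0 exon reads in *suvr5-1*, 6 in the double mutant and 0 in the triple mutant, against 53 in Col-0. With 3 reads in place of none, it was 26.8-fold lower in *suvr5-1* and 17.7-fold lower in the triple mutant. The 95% intervals of these ratios reach up to 0.0476 and 0.0718, and the ratio in the double mutant was 0.132 (0.0462 to 0.306). Its bins at 2753001 and 2754001 met the read minimum only through Col-0, with 32 and 34 reads there. The double mutant had 6 and 0 reads in them and the other mutants none, so the selection favoured these lower calls.

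**Figure D5:**
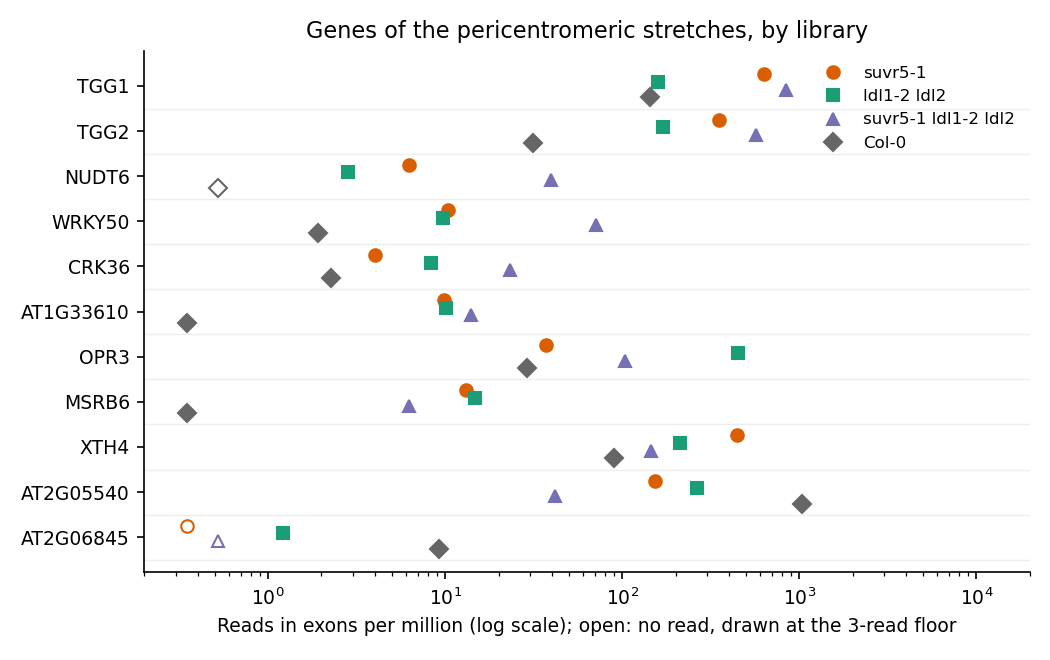
RPM in exons (log scale) of 11 genes of the stretches in the libraries of *suvr5-1* (circles), the double mutant (squares), the triple mutant (triangles) and Col-0 (diamonds), with open symbols at the level of 3 reads where a library had none. Col-0 was the lowest library for the first 9 genes and the highest for AT2G05540 and AT2G06845. The member bins of AT2G06845 met the read minimum only through Col-0.

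Strong differences also lay in bins where no gene is named. The bin at 6041001 to 6042000 of chromosome 2 had 142 reads in *suvr5-1*, 3 in the double mutant and 18 in the triple mutant, against 0 in Col-0. With 3 reads in place of none, *suvr5-1* was 31.3-fold higher there, and the 95% interval of the ratio begins at 25.1. On chromosome 3, the bin at 16391001 to 16392000 had 134, 1059 and 682 reads in these mutants, against 38 in Col-0, with ratios of 32.4 (95% interval 23.4 to 46.0) in the double mutant and 17.9 (12.9 to 25.5) in the triple mutant. The bin at 16907001 to 16908000 was high in the double mutant only, with 21 reads in *suvr5-1*, 211 in the double mutant and 6 in the triple mutant, against 8 in Col-0. In the bin at 15994001 to 15995000 the order was turned, with 18, 7 and 84 reads in these mutants, against 134 in Col-0. There *suvr5-1* and the double mutant were called lower (ratios 0.0887 and 0.0607) and the triple mutant was not (0.624, 95% interval 0.470 to 0.826).

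Of the other bins that the ratio singled out, those without a Col-0 read differed in which mutant was high. The bin at 12884001 to 12885000 of chromosome 1 had 50 reads in *suvr5-1*, 10 in the double mutant and 63 in the triple mutant, and the bin at 17385001 to 17386000 had 59, 10 and 24, against 0 in Col-0 for both. On chromosome 2 the bins at 5779001 to 5780000 and 6224001 to 6225000 had 61 and 63 reads in the triple mutant, 14 and 16 in *suvr5-1* and 0 in the double mutant, against 0 in Col-0. With 3 reads in place of none in Col-0, the triple mutant was 20.3-fold and 20.9-fold higher there. The bin at 10213001 to 10214000 of chromosome 5 was highest in the double mutant, with 14 reads in *suvr5-1*, 54 in the double mutant and 12 in the triple mutant, against 0 in Col-0.

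Few Col-0 reads also stood behind the bin at 14106001 to 14107000 of chromosome 5, with 78, 22 and 24 reads in the mutants, against 1 in Col-0, a ratio of 51.5 in *suvr5-1* (95% interval 8.98 to 2060). The bin at 16838001 to 16839000 of chromosome 1 had 28, 98 and 32 reads in them, against 2 in Col-0, a ratio of 56.9 in the double mutant (15.3 to 477). Both were called higher in all 3 mutants.

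Of the bins named by the lowest ratios, those at 14208001 of chromosome 3 and 17256001 of chromosome 1 were called lower in the triple mutant and in neither of the other mutants. The bin at 14208001 to 14209000 of chromosome 3 had 211 reads in *suvr5-1*, 161 in the double mutant and 10 in the triple mutant, against 383 in Col-0, a ratio of 0.0260 (95% interval 0.0124 to 0.0483) in the triple mutant. That bin adjoins the left-out bin at 14209001 to 14210000. The bin at 17256001 to 17257000 of chromosome 1 had 39, 11 and 4 reads in the mutants, against 51 in Col-0. Its ratio in the double mutant was 0.251 (95% interval 0.118 to 0.487), just short of the 4 fold of a call. Lower in *suvr5-1* and the double mutant but not called in the triple mutant was the bin at 15996001 to 15997000 of chromosome 3, with 112, 76 and 248 reads in the mutants, against 589 in Col-0. The bin at 12396001 to 12397000 of chromosome 1, over AT1G34060 of the alliinase family, was called lower in *suvr5-1* only, with 5 reads there, 13 in the double mutant and 38 in the triple mutant, against 50 in Col-0.

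The members with most reads on chromosomes 4 and 5 were not called. The bin at 3055001 to 3056000 of chromosome 4, a pile-up, had 11887 reads in *suvr5-1*, 12448 in the double mutant and 13689 in the triple mutant, against 12541 in Col-0, and the bin at 15395001 to 15396000 of chromosome 5 had 14565, 5919 and 7404 in the mutants, against 5098 in Col-0. On chromosome 5 the ratio was 1.89 in *suvr5-1* (95% interval 1.83 to 1.95), 1.35 in the double mutant and 1.45 in the triple mutant.

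SUVR5 is known to bind the palindrome TACTAGTA through its zinc fingers. It was found in 234 of the 27443 promoters of 300 bases (0.853%) and in 4 of the 879 promoters of the stretches (0.455%). These 4 are shown, with the octamer in capitals, because they carry the letters that SUVR5 is known to bind. They lie at chr2:1308495-1308794 (minus strand), chr2:1513240-1513539 (plus strand), chr5:9742242-9742541 (plus strand) and chr5:9944893-9945192 (minus strand) in TAIR10.1. The octamer lies before the annotated gene start in AT2G04041 and AT2G04340. In *LACS7* and AT5G27920 it lies past that start, by 12 to 19 and by 41 to 48 bases. AT2G04041 had no exon read in any library. AT2G04340 had 117 exon reads in *suvr5-1*, 53 in the double mutant and 83 in the triple mutant, against 85 in Col-0, and AT5G27920, an F-box protein, had 74, 40 and 52, against 72 in Col-0. No bin of either was called. *LACS7* (AT5G27600), a peroxisomal long-chain acyl-CoA synthetase, had 139, 94 and 251 exon reads in these mutants, against 89 in Col-0, a ratio of 1.03 (95% interval 0.785 to 1.36) in *suvr5-1*, 1.23 (0.909 to 1.66) in the double mutant and 2.81 (2.20 to 3.62) in the triple mutant. Of its 4 bins, 2 were called higher in the triple mutant and none in the other mutants.
AT2G04041: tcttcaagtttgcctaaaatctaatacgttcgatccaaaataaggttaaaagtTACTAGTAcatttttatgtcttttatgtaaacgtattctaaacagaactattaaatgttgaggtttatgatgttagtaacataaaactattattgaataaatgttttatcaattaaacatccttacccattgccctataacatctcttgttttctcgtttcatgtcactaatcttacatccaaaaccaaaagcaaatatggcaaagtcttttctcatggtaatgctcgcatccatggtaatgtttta
AT2G04340: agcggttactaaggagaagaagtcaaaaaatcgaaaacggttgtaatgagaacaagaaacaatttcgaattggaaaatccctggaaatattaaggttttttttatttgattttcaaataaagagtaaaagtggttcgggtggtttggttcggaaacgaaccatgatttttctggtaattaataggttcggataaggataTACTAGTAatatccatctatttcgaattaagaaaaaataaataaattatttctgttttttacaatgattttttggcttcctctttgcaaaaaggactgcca
LACS7: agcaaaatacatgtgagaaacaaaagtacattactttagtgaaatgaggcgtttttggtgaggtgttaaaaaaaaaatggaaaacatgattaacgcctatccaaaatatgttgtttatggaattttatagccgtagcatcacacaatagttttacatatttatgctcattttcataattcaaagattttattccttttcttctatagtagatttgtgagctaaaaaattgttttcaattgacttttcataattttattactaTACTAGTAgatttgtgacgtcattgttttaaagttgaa
AT5G27920: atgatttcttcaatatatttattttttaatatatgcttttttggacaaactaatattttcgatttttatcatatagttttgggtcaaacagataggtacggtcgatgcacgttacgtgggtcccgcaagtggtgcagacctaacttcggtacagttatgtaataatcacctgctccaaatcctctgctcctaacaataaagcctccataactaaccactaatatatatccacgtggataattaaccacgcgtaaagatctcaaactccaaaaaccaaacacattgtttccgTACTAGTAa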

How the data were processed

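The authors isolated leaf RNA with Trizol, selected poly(A) RNA and sequenced it on an Illumina Genome Analyzer. The deposited files give, for each mapped read, its chromosome, strand and leftmost position, with 1 line per read, so they are read positions and not counts per gene. Bowtie is named in the submitters' processing notes, without a version, and the assembly and the treatment of reads with several matches are not given in the sources used here. Reads were counted in bins of 1 kb and scaled to nuclear reads outside the 5 left-out bins (64.4% of nuclear reads in *suvr5-1*, 55.8% in the double mutant, 53.6% in the triple mutant and 55.3% in Col-0). Tests were Fisher's exact, adjusted by Benjamini-Hochberg, in SciPy 1.17.1 under Python 3.11.15 and tested on simulated data. Ratio intervals are exact binomial ones. Displacement from TAIR10.1 exons was measured in windows of 250 kb. A window was kept at 30 bp or less and a z-score of at least 5, if the neighbouring windows met both conditions too. Reads were assigned to genes by their leftmost position in merged exons, without strand. The bins named were, for each mutant, the 5 called with the highest ratio among those with 50 or more mutant reads and the 5 lowest among those with 50 or more Col-0 reads, and the member with most reads on each chromosome. The genes named in the stretches, the pile-up bins, the motifs and the promoters were chosen after the values were seen. The members and all lists were chosen with earlier results of these data known. Alternatives were other library sizes, no read minimum, a beta-binomial test, distinct positions and narrower windows.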

Additional observations from a re-analysis of the deposited data

Results flagged for a closer look

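The 3 left-out bins of the pericentromere of chromosome 3 belong to no comparison above, and each of them had in 1 mutant library a larger share of the nuclear reads than in Col-0. The bin at 14209001 to 14210000 took 6.51% of the nuclear reads of the double mutant, against 5.86% in Col-0. In the triple mutant, the bin at 14212001 to 14213000 took 24.8%, against 22.9% in Col-0, and the bin at 14213001 to 14214000 took 14.7%, against 13.6% in Col-0. In *suvr5-1* these shares were lower, at 4.13%, 17.9% and 10.5%. Every library covered the same number of distinct positions in them, 144, 356 and 288 in this order.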

How the results depend on the processing

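The counts of called members moved by over 1.5 times under 3 settings. With the beta-binomial test, 10 members were called higher and 11 lower in *suvr5-1*, 33 and 5 in the double mutant and 54 and 8 in the triple mutant. With each position and strand counted once, the counts were 29 and 14, 49 and 20, and 101 and 19. Shares over all bins fell too, to 0.120% higher and 0.181% lower in *suvr5-1*, 0.597% and 0.106% in the double mutant and 1.08% and 0.150% in the triple mutant with the beta-binomial test, and to 0.618% and 0.411%, 0.973% and 0.536%, and 1.92% and 0.579% with distinct positions. In windows narrowed by 1 Mb on each side, which hold fewer bins, the counts were 34 and 52, 106 and 40, and 46 and 40. No share of members is given for the narrowed windows, so these counts cannot be set against those of the full windows or of all bins. The log2 ratio of all member reads to Col-0, -0.04 in *suvr5-1*, was 0.18 with all nuclear reads, -0.061 with median-of-ratios factors, 0.020 with distinct positions and -0.28 in the narrowed windows. In the double mutant it was -0.07, and -0.053, -0.15, 0.044 and -0.19 under these settings, and -0.061 without a read minimum. In the triple mutant it was 0.04, and -0.00119 with all nuclear reads, -0.15 with median-of-ratios factors and -0.19 in the narrowed windows. Leaving out the pile-up bins or the largest bin of chromosome 3, both chosen after seeing the data, gave 0.17 and 0.051 in *suvr5-1*, 0.043 and 0.025 in the double mutant, and 0.20 and 0.14 in the triple mutant. Sums by chromosome turned sign without the pile-up bins on chromosome 1 in *suvr5-1* (0.069) and the triple mutant (0.15), on chromosome 3 in the double (0.23) and the triple mutant (0.56), and in the double mutant on chromosomes 2 (-0.00168) and 5 (0.054). Without the largest bin of chromosome 3 its sums turned to 0.39 in the double and 0.53 in the triple mutant. With distinct positions the sums turned on chromosome 1 in *suvr5-1* (0.039) and the triple mutant (0.045), on chromosome 3 in the double (0.16) and triple mutant (0.13), and on chromosome 2 in the triple mutant (-0.051). Median-of-ratios factors turned chromosome 2 in the double (-0.066) and triple mutant (-0.11) and chromosome 4 in the triple mutant (-0.092). All nuclear reads turned chromosome 4 in *suvr5-1* (0.074), and the narrowed windows turned chromosome 5 in *suvr5-1* (-0.19). Of the named bins, those of the double mutant at 17385001 of chromosome 1 (-0.95), at 13826001 of chromosome 3 (0.48) and at 14270001 of chromosome 5 (0.22) turned sign with distinct positions. Other causes than those named were not tested. Depth limits the weakest members, since 3 reads equal 0.346 RPM in *suvr5-1*, 0.609 RPM in the double mutant, 0.522 RPM in the triple mutant and 0.524 RPM in Col-0. No paired analysis was possible because each genotype had 1 library.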
